A study of Mus musculus with 4 samples.

Results

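Expression of 10 claudin and tight junction genes was compared between lung tumours of CD109-/- and CD109+/+ KP mice. The genes are Cldn1, Cldn2, Cldn3, Cldn4, Cldn7, Cldn18, Ocln, Tjp1, Tjp3 and Marveld2. They were chosen by name, and every array probe whose accession belongs to one of them was read, which gave 14 of the 56605 probes on the array and 10 of its 23787 named genes. KP mice, used here on the C57BL/6J strain, develop lung adenocarcinoma when Cre recombinase acts on the engineered alleles they carry. All groups had received adenovirus carrying Cre through the trachea 88 to 92 days before RNA was taken from the tumours, so both groups share the tumour-initiating alleles and the virus and differ in their Cd109 alleles. The CD109-/- group comprised replicate 1, male, and replicate 2, female. The CD109+/+ group comprised replicates 1 and 2, both female. The promoter that drives Cre and the number of tumours in each sample are not given in the sources used here.

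Tight junctions seal the gap between neighbouring epithelial cells near their apical side. Claudins are small membrane proteins that polymerise into the strands of the junction, some forming a barrier and others a pore for ions and water, while occludin and tricellulin are membrane proteins of the same strands and the ZO proteins tie them to the actin cytoskeleton. In the lung, these strands keep fluid out of the air spaces, and claudins are often expressed at altered levels in adenocarcinomas, which arise from epithelium.

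Each sample was hybridised to 1 single-colour array. The array's 75th percentile of signal, against which all log2 values below are given, was 677 and 688 on the CD109-/- arrays and 557 and 669 on the CD109+/+ arrays, and between 64.3% and 67.0% of spots were well above background. Pairs of values are given for replicate 1 and then replicate 2 of a genotype, differences are CD109-/- minus CD109+/+ on the log2 scale, and errors of differences are standard errors from limma (SE, n = 2 per genotype). The Cd109 probe gave -7.98 and -7.87 in CD109-/- tumours, where it was not well above background, against -3.70 and -4.66 in CD109+/+ tumours, a signal at least 2.92-fold lower in CD109-/- tumours (limma adjusted p = 0.299). That bound sets the CD109+/+ mean against, on each CD109-/- array, the lowest signal found among probes well above background. The labelled tissue could be read from the surfactant gene Sftpc, a marker of alveolar type 2 cells, at 8.92 and 8.79 in CD109-/- tumours, against 9.11 and 8.96 in CD109+/+ tumours, and from the epithelial adhesion gene Epcam at 2.13 and 1.34 in CD109-/- tumours, against 1.90 and 1.56 in CD109+/+ tumours. Each label speaks of 1 mouse. The CD109-/- replicates, a male and a female, came from different animals. For the CD109+/+ replicates, both female, the labels do not say whether they did. The p-values therefore measure only the spread between these samples, and an exact two-sided permutation test of 2 arrays against 2 cannot go below 0.333. In tumour tissue of mixed cells, fewer cells of a type and less RNA per cell cannot be told apart.

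The start regions of 6 of these genes are shown because the genes form neighbouring pairs or share the pattern across arrays described below. A further reason is that each window shown carries letters matching an element read by repressors of junction genes. Each start region is 1 window of RefSeq in build GRCm38.p6, from 250 bases before to 50 bases after a transcript start. It is written along the gene's own strand. Capitals mark CAGGTG or its reverse complement CACCTG, the core letters of the E-box that SNAIL and ZEB proteins bind in the promoters of Cdh1 and other epithelial genes.
Cldn3, chr5:134985964-134986263, plus strand: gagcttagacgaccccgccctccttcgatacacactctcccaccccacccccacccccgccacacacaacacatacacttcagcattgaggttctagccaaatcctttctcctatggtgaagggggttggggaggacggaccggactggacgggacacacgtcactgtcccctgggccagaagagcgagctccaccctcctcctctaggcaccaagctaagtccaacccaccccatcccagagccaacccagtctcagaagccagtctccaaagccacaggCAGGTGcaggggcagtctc
Cldn4, chr5:134946885-134947184, minus strand: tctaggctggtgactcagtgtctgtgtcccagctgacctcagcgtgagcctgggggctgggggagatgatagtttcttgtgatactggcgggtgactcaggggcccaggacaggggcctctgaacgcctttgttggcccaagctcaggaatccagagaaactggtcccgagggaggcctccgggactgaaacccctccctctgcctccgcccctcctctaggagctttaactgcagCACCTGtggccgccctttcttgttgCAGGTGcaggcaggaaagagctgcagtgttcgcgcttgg
Cldn7, chr11:69965171-69965470, plus strand: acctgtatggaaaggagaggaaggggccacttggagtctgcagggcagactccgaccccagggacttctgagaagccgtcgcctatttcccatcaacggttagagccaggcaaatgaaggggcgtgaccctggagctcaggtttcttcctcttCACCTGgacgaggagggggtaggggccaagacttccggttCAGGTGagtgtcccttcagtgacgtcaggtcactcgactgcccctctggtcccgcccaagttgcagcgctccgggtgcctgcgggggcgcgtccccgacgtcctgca
Tjp3, chr10:81291218-81291517, minus strand: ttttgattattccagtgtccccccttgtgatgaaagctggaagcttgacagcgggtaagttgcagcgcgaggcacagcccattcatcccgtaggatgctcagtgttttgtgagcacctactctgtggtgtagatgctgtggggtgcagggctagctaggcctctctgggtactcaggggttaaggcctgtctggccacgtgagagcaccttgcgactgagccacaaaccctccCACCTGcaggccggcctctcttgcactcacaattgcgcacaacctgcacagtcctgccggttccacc
Ocln, chr13:100552449-100552748, minus strand: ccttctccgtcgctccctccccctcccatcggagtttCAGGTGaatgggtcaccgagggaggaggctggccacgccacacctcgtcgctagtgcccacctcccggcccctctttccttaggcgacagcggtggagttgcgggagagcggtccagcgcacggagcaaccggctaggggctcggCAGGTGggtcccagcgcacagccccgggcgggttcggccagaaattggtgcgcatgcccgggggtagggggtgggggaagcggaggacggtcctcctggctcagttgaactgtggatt
Marveld2, chr13:100616895-100617194, minus strand: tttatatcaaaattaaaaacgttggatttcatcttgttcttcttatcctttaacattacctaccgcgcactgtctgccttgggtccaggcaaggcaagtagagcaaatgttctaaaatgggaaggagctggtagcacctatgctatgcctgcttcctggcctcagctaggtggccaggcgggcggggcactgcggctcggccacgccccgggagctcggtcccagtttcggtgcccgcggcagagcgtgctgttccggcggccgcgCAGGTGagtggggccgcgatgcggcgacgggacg
Counting the first transcribed base as 1 and the base before it as -1, a match begins at 32 in Cldn3, at -14 and 12 in Cldn4, at -97 and -57 in this Cldn7 window, at -17 in this Tjp3 window, at -213 and -68 in this Ocln window and at 17 in this Marveld2 window. RefSeq gives 15 such windows for the 10 genes, and 9 windows of 6 genes hold at least 1 match. The second Tjp3 window has a match at -108, and the second Cldn7 window has none. Windows of the same gene overlap for Ocln and for Marveld2, so some matches are counted in more than 1 window. Among all 32851 windows of the table, 6640 (20.2%) hold a match. The windows of Cldn1, Cldn2, Cldn18 and Tjp1 hold none, which says only that these letters are not in those 300 bases. A match is a description of the letters and was not tested as a binding site. Cldn3 and Cldn4 are neighbours on chromosome 5 and Ocln and Marveld2 on chromosome 13, with 0 protein-coding genes between them in each pair.

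No member probe passed the threshold. All 14 probes were well above background on all 4 arrays, and 0 of 14 had a limma adjusted p under 0.05, where 0% of the 35769 tested probes did. At an unadjusted p under 0.05 there were also 0 of 14, against 6.81% of all tested probes. The adjusted p-values of the members lay between 0.757 and 0.995 in limma's fit. Values were higher in CD109-/- tumours for 6 probes and lower for 8, with differences from -0.59 to 0.56, and the 95% interval contained 0 for all 14. In 5 of 14 probes (35.7%) the genotypes did not overlap, against 37.7% of all tested probes. Among them 1 lay higher in CD109-/- tumours, where 16.5% of all tested probes did, and 4 lay lower, where 21.2% did. The combined share is close to the background. By direction, the counts of 1 and 4 are too small to set the members apart, and both Tjp1 probes are among the 4. The CD109-/- arrays differed from each other by more than the genotypes did in 9 of 14 probes, as they did in 61.1% of all tested probes.

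**Figure D1:**
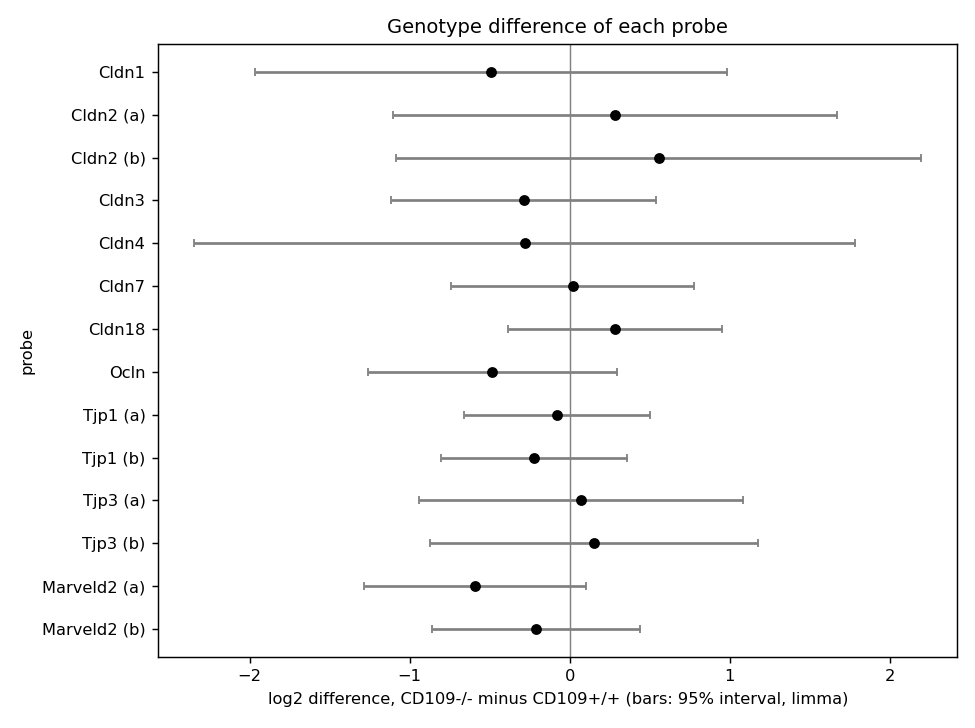
Difference of each of the 14 probes, CD109-/- minus CD109+/+ on the log2 scale, with points for limma's estimate and bars for its 95% interval (n = 2 per genotype; of 2 probes of a gene, a is the one whose ID sorts first). Every interval crosses 0; the widest belongs to Cldn4, from -2.34 to 1.79, and the Tjp1 intervals are among the narrowest.

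The barrier-forming claudins gave no common direction. Cldn4, a barrier claudin that alveolar epithelium raises after injury, had the widest spread. Its log2 signal was -0.22 and -2.59 in CD109-/- tumours, against -0.83 and -1.42 in CD109+/+ tumours. Both extremes were CD109-/- arrays, with replicate 1 above and replicate 2 below both CD109+/+ arrays. The gap of 2.38 between the CD109-/- arrays was exceeded by 1.5% of all tested probes. The difference of -0.28 ± 0.80 (limma adjusted p = 0.964) therefore depended on which array entered. Leaving out CD109-/- replicate 2 gave 0.91, whereas leaving out CD109-/- replicate 1 gave -1.47. With 1 CD109-/- array left, the spread of that genotype cannot be measured, so no error is given. Leaving out CD109+/+ replicate 1 gave 0.019.

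Cldn3, the neighbour of Cldn4 and like it a receptor for a Clostridium toxin, read 4.43 and 5.16 in CD109-/- tumours, against 5.02 and 5.14 in CD109+/+ tumours. Only CD109-/- replicate 1 stood apart, below the other arrays, which lay between 5.02 and 5.16. The difference was -0.29 ± 0.32 (limma adjusted p = 0.891), and became -0.65 once CD109-/- replicate 2 was left out and 0.078 once replicate 1 was. The order of the arrays in Cldn3 was the exact reverse of that in Cldn4, but apart from CD109-/- replicate 1 it rests on small gaps. That array was lowest in Cldn3 and highest in Cldn4.

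Cldn7, a claudin of tight junctions and of the lateral membrane, had 4.59 and 4.03 in CD109-/- tumours, against 4.41 and 4.17 in CD109+/+ tumours. As in Cldn4, the CD109+/+ values lay between the CD109-/- values. The means were nearly equal, with a difference of 0.02 ± 0.30 (limma adjusted p = 0.995). The 95% interval runs from a ratio of 0.60 to 1.72, so ratios within that range remain compatible with these values. The sign of so small a difference turned with the scaling, at -0.025 after quantile normalization and -0.0014 in the authors' processed values, and with the arrays used, at -0.26 when CD109-/- replicate 1 was left out and -0.10 when CD109+/+ replicate 2 was.

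Cldn18 was the only member whose values lay higher in both CD109-/- tumours. It encodes a claudin made in a lung form by alveolar epithelium and in a stomach form by gastric epithelium, and which form its probe reads was not examined. The signal was 0.18 and 0.22 in CD109-/- tumours, against -0.30 and 0.12 in CD109+/+ tumours. The CD109-/- arrays agreed closely, and CD109+/+ replicate 2 lay only just below them. Most of the difference in means came from CD109+/+ replicate 1. The difference of 0.29 ± 0.26 (limma adjusted p = 0.860) came to 0.075 with that array left out and to 0.50 with the other CD109+/+ array left out.

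Cldn1, a claudin required for the barrier of the skin, read -2.87 and -1.51 in CD109-/- tumours, against -2.19 and -1.20 in CD109+/+ tumours. The genotypes overlapped, and replicate 2 was higher than replicate 1 in each. The difference was -0.49 ± 0.57 (limma adjusted p = 0.894). Leaving out CD109-/- replicate 2 gave -1.17 and CD109+/+ replicate 1 gave -0.99, whereas leaving out CD109-/- replicate 1 gave 0.18 and CD109+/+ replicate 2 gave 0.0028.

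Cldn2 forms pores for cations and water and is best known from leaky epithelia. The gene lies on the X chromosome and is read by 2 probes. Probe A_52_P251450 gave 0.13 and 0.74 in CD109-/- tumours, against -1.02 and 0.77 in CD109+/+ tumours. Probe A_51_P437045 gave -3.91 and -3.46 in CD109-/- tumours, against -4.72 and -3.23 in CD109+/+ tumours. Both probes put the 4 arrays in the same order, with CD109+/+ replicate 2 highest and CD109+/+ replicate 1 lowest, so the CD109-/- values lay inside the CD109+/+ range. The male array was second from the bottom. Differences were 0.56 ± 0.64 and 0.29 ± 0.54 (limma adjusted p = 0.892 and 0.938). They turned to -0.34 and -0.46 when CD109+/+ replicate 1 was left out and grew to 1.46 and 1.03 when replicate 2 was. The difference of A_51_P437045 was -0.0024 after normexp background correction.

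**Figure D2:**
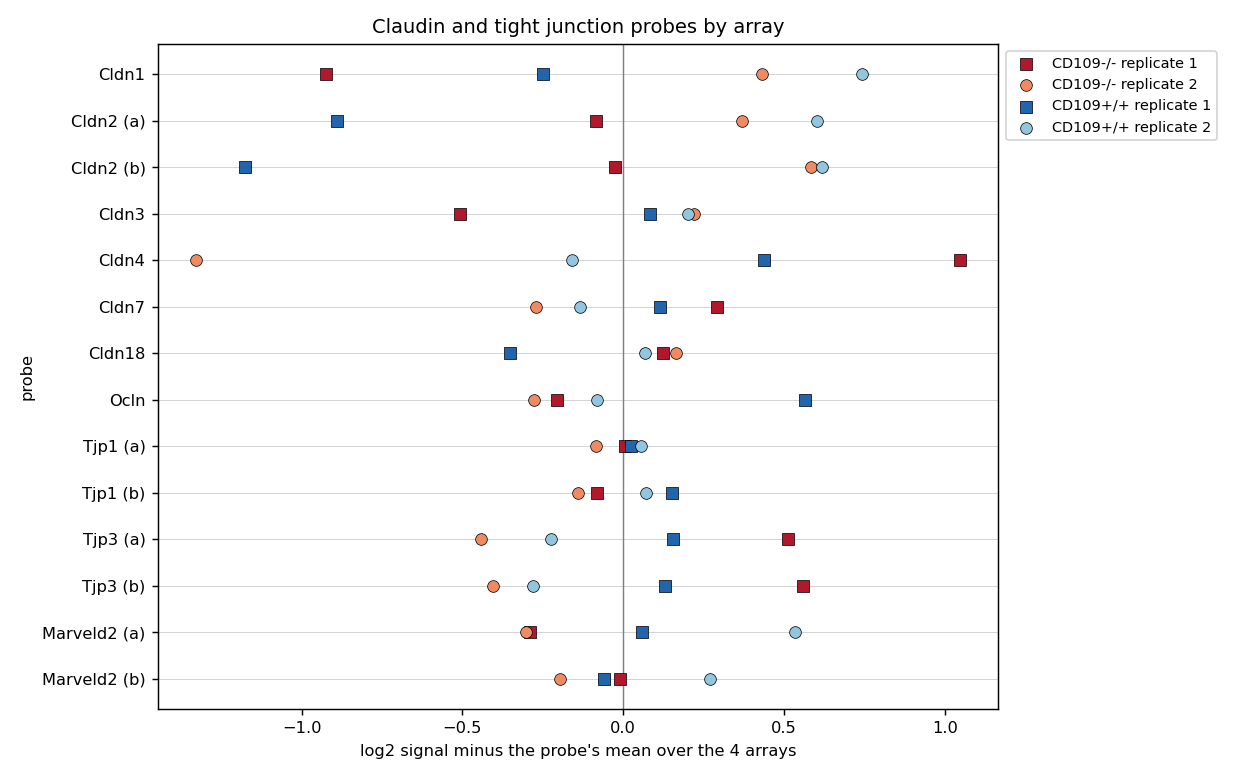
Log2 signal of each of the 14 probes on each array, given as the distance from that probe's own mean over the 4 arrays (squares replicate 1, circles replicate 2; red CD109-/-, blue CD109+/+). Cldn4 spans 2.38 and one Tjp1 probe 0.14. In Cldn4, Cldn7 and both Tjp3 probes the CD109-/- arrays are the outermost points.

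The genes of occludin and tricellulin had lower means in CD109-/- tumours, and neither passed the test. Ocln encodes occludin, a MARVEL membrane protein of the strands. Its signal was -1.20 and -1.27 in CD109-/- tumours, against -0.42 and -1.07 in CD109+/+ tumours. The genotypes did not overlap, with CD109+/+ replicate 2 near the CD109-/- arrays and CD109+/+ replicate 1 well above. The mean was -1.23 ± 0.05 in CD109-/- tumours and -0.75 ± 0.46 in CD109+/+ tumours (SD, n = 2 each). The difference of -0.48 ± 0.30 (limma adjusted p = 0.804) shrank to -0.16 when CD109+/+ replicate 1 was left out and widened to -0.81 when replicate 2 was.

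Marveld2 encodes tricellulin, which closes the points where 3 cells meet, and its gene adjoins Ocln. Probe A_52_P532323 gave -2.83 and -2.85 in CD109-/- tumours, against -2.49 and -2.01 in CD109+/+ tumours. The CD109-/- arrays were nearly equal and lay below both CD109+/+ arrays. This probe had the lowest unadjusted p of the members, 0.0796, which 10.5% of all tested probes undercut. Its difference was -0.59 ± 0.27 (limma adjusted p = 0.757), with a range from -0.83 to -0.35 when 1 array was left out. The other probe, A_55_P2482048, gave 0.82 and 0.63 in CD109-/- tumours, against 0.77 and 1.10 in CD109+/+ tumours. Here the genotypes overlapped, and the difference was -0.21 ± 0.25 (limma adjusted p = 0.901), or -0.04 without CD109+/+ replicate 2. Ocln and both Marveld2 probes kept a negative difference under all 14 alternatives, and so did both Tjp1 probes. Of these, only A_55_P2482048 had overlapping genotypes. Where genotypes do not overlap, leaving out an array cannot turn the sign, so the signs kept there restate the non-overlap. Relatives of Ocln and Marveld2 outside the 10 genes, named after their values were seen, differed by 0.12 ± 0.23 for Marveld1 and by -0.25 ± 0.22 for Marveld3. The further Marveld3 probes gave 0.02 and -0.14.

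The plaque proteins ZO-1 and ZO-3 behaved differently across arrays. Tjp1 encodes ZO-1, the scaffold that binds claudins, occludin and actin. Probe A_55_P2034998 gave 2.35 and 2.29 in CD109-/- tumours, against 2.58 and 2.50 in CD109+/+ tumours. Probe A_51_P390739 gave -0.43 and -0.52 in CD109-/- tumours, against -0.41 and -0.38 in CD109+/+ tumours. Both read lower on each CD109-/- array than on each CD109+/+ array, by little. The differences were -0.22 ± 0.23 and -0.08 ± 0.23 (limma adjusted p = 0.877 and 0.963). Their values span 0.29 and 0.14 over the 4 arrays, and a wider span was found in 90.0% and 98.5% of all tested probes. Tjp1 was thus among the steadier signals on these arrays, and its non-overlap rests on differences smaller than their limma standard errors. Those errors draw on the spread of all tested probes. Replicates of A_55_P2034998 differed by only 0.06 in CD109-/- and 0.08 in CD109+/+ tumours, and those of A_51_P390739 by 0.09 and 0.03.

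Tjp3 encodes ZO-3, a plaque protein restricted to epithelia. Probe A_55_P1960291 gave 3.82 and 2.86 in CD109-/- tumours, against 3.39 and 2.98 in CD109+/+ tumours. Probe A_51_P234407 gave 2.06 and 1.10 in CD109-/- tumours, against 1.70 and 1.32 in CD109+/+ tumours. The CD109+/+ values again lay between the CD109-/- values. After each probe was centred on its own mean, the 2 probes differed by at most 0.06 on any array. The differences between genotypes were 0.15 ± 0.40 and 0.07 ± 0.39 (limma adjusted p = 0.959 and 0.984). Leaving out CD109-/- replicate 2 gave 0.63 and 0.55, leaving out CD109-/- replicate 1 gave -0.33 and -0.40, and leaving out CD109+/+ replicate 2 gave -0.053 and -0.12.

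**Figure D3:**
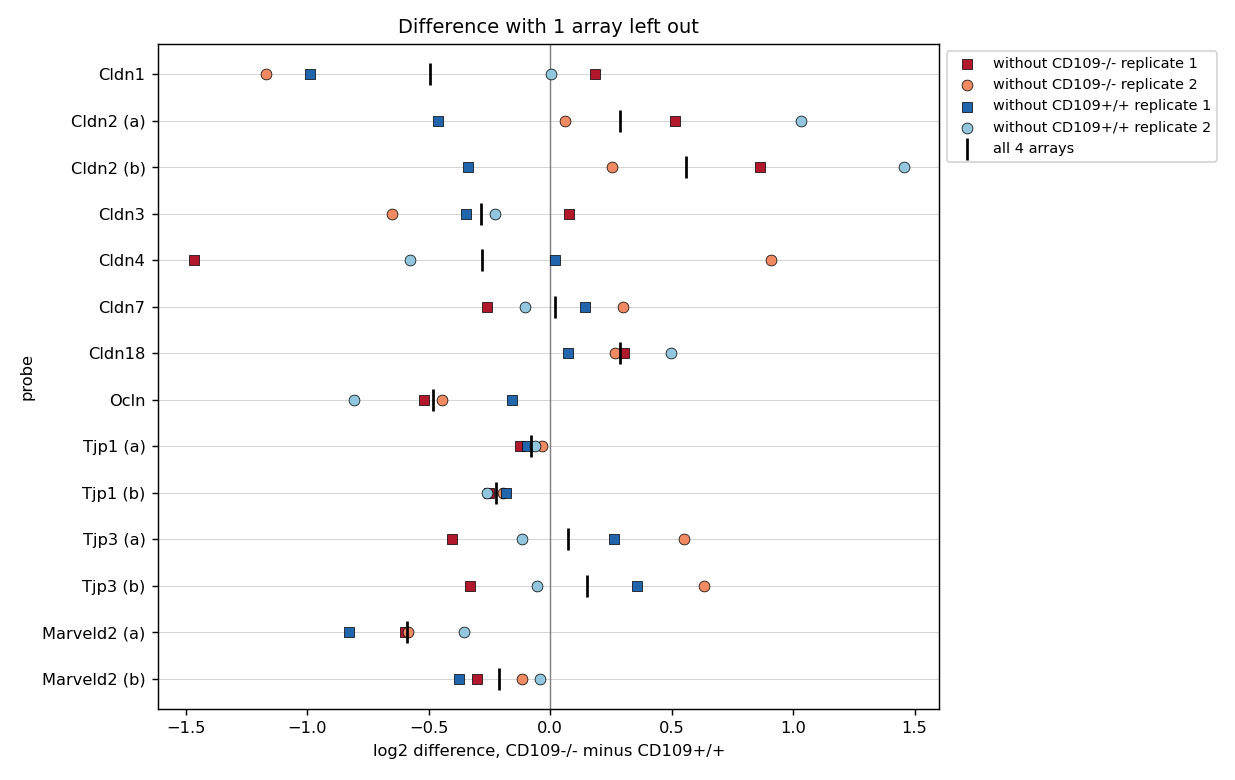
Difference of each of the 14 probes, CD109-/- minus CD109+/+ on the log2 scale, with all 4 arrays (black bar) and with 1 array left out (coloured points). Cldn4 runs from -1.47 to 0.91 and Tjp3 crosses 0, whereas Cldn18, Ocln, Tjp1 and Marveld2 stay on 1 side of 0. Probes whose genotypes did not overlap cannot cross 0 here.

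Across the arrays, Cldn4, Cldn7 and both Tjp3 probes shared 1 order. CD109-/- replicate 1 was highest, followed by CD109+/+ replicate 1, CD109+/+ replicate 2 and CD109-/- replicate 2. Of all tested probes 6.07% had this order, and 6.60% had its reverse, as Cldn3 did. Markers of epithelial cells followed the shared order in their median. The median distance of the 15 epithelial markers from each gene's 4-array mean was 0.40 and -0.45 in CD109-/- tumours, against 0.17 and -0.18 in CD109+/+ tumours. For 11 genes of gastric and endoderm type, some of which mark KP tumour cells that have lost lung identity, it was 0.98 and -1.04 in CD109-/- tumours, against 0.62 and -0.35 in CD109+/+ tumours. Cdh1, the E-cadherin gene, read 4.38 and 3.27 in CD109-/- tumours, against 3.67 and 3.59 in CD109+/+ tumours. Single markers followed the order less uniformly, with the exact order in 4 of 15 epithelial and 3 of 11 gastric and endoderm genes. The summed signal of the epithelial list, in units of the array's 75th percentile, was 499 and 323 in CD109-/- tumours, against 675 and 389 in CD109+/+ tumours, and that of the gastric and endoderm list was 147 and 46.6 in CD109-/- tumours, against 166 and 97.2 in CD109+/+ tumours. By these sums CD109+/+ replicate 1, not CD109-/- replicate 1, was highest in both lists. Such sums, here and below, weigh the brightest genes most. On CD109+/+ replicate 1 these were Krt18 at 8.39 and Krt8 at 7.20 in the epithelial list, and Gkn2 at 6.19 in the gastric and endoderm list. Gkn2 did not follow its list's median order, with 3.10 and 4.80 in CD109-/- tumours, against 6.19 and 6.08 in CD109+/+ tumours. In that list CD109-/- replicate 1 lay above replicate 2 in 9 genes and below it in 2.

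Markers of other epithelial cells took other orders. The 8 club and ciliated cell markers had a median distance of -0.08 and 1.02 in CD109-/- tumours, against -0.98 and 0.13 in CD109+/+ tumours, with a summed signal of 257 and 330 in CD109-/- tumours, against 106 and 174 in CD109+/+ tumours. Scgb1a1, the club cell secretory protein gene, read 7.49 and 7.79 in CD109-/- tumours, against 5.91 and 6.51 in CD109+/+ tumours. The 10 alveolar type 1 markers stood at -0.22 and 0.53 in CD109-/- tumours, against 0.01 and -0.25 in CD109+/+ tumours, so CD109-/- replicate 2, lowest for Cldn4, was highest for them and for the airway markers. The 10 alveolar type 2 markers spread least among the 8 marker lists, between -0.22 and 0.20. For Ager, the alveolar type 1 receptor gene, the values were 6.99 and 7.83 in CD109-/- tumours, against 7.79 and 7.39 in CD109+/+ tumours. The difference at this probe was -0.17, and further Ager probes gave -0.23, -0.92, -0.04 and -0.12.

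Marker lists of non-epithelial cells had higher medians on both CD109-/- arrays. All 10 fibroblast markers and all 10 endothelial markers had higher means in CD109-/- tumours, as did 8 of 10 leukocyte markers, with median differences of 1.03, 0.32 and 0.70. In these 3 lists 0 genes passed limma's threshold. Pecam1, an endothelial adhesion gene, read -1.86 and -1.74 in CD109-/- tumours, against -2.32 and -2.01 in CD109+/+ tumours. The fibrillar collagen gene Col1a1 read 2.87 and 2.43 in CD109-/- tumours, against 3.06 and 2.12 in CD109+/+ tumours, so its genotypes overlapped at this probe. The difference there was 0.06, and further Col1a1 probes gave 0.48 and 0.39. The leukocyte marker Ptprc, which encodes CD45, read 1.34 and 1.38 in CD109-/- tumours, against 0.20 and 0.48 in CD109+/+ tumours. Its difference was 1.02 (further probe 0.71). Summed signals of the fibroblast list were 58.8 and 57.3 in CD109-/- tumours, against 36.7 and 33.8 in CD109+/+ tumours, those of the leukocyte list 81.6 and 80.6 in CD109-/- tumours, against 66.6 and 73.1 in CD109+/+ tumours. The endothelial list summed to 35.5 and 53.7 in CD109-/- tumours, against 39.1 and 33.2 in CD109+/+ tumours. The part of cell composition in the values of Ocln, Marveld2, Tjp1 and Cldn18, and in the shared order of Cldn4, Cldn7 and Tjp3, was not tested.

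**Figure D4:**
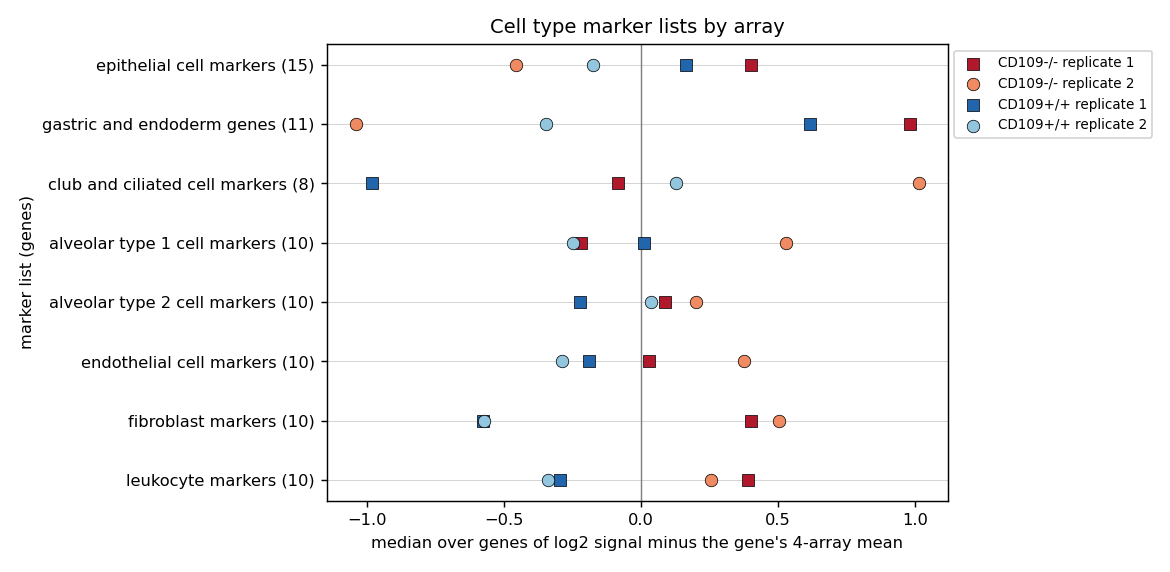
Median distance of each marker list from its genes' 4-array means on the log2 scale, by array (number of genes in brackets; squares replicate 1, circles replicate 2; red CD109-/-, blue CD109+/+). The epithelial and the gastric and endoderm lists run from CD109-/- replicate 1 down to CD109-/- replicate 2, and the fibroblast and leukocyte lists are higher on both CD109-/- arrays.

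Taken as 1 list by gene, with the brightest tested probe standing for each gene, 4 of the 10 genes had higher and 6 lower means in CD109-/- tumours. The median difference was -0.22, beside 0.00 over all 16443 genes tested and -0.18 over the 15 epithelial markers, of which 10 had lower means. Without CD109-/- replicate 2 the members' median was 0.07, with 5 genes higher. By gene 0% passed limma's threshold over the whole table, and 7.41% had an unadjusted p under 0.05, whereas 0 of the 10 did.

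The remaining genes of the junction showed no overall shift. Of 66 further genes listed, 56 were tested, and 34 of them had higher means in CD109-/- tumours with a median difference of 0.09. None of the 56 passed limma's threshold, and 2 (Cxadr and Rab3b) had an unadjusted p under 0.05. Without CD109-/- replicate 1 the median was -0.02, with 27 genes higher. Among 24 further claudins and claudin-like genes 14 were tested, 9 higher and 5 lower, with a median difference of 0.08. In the other 10, neither genotype had both arrays well above background. Cldn5, the main claudin of endothelium, read 0.62 and 0.95 in CD109-/- tumours, against 1.34 and 0.04 in CD109+/+ tumours, a difference of 0.09 ± 0.49 (limma adjusted p = 0.982). The broadly expressed Cldn12 differed by 0.06 ± 0.23, the pore-forming Cldn10 by 0.46 ± 0.77 and Cldn15 by 0.34 ± 0.38. Cldn23 spread widely, with -1.42 and -4.23 in CD109-/- tumours, against -2.86 and -4.31 in CD109+/+ tumours, and differed by 0.77 ± 1.07.

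Among 14 other membrane proteins of the junction, 11 had higher means in CD109-/- tumours, with a median difference of 0.30, and 0 passed limma's threshold. Cxadr, the coxsackievirus and adenovirus receptor and a junctional adhesion protein, had 4.18 and 4.10 in CD109-/- tumours, against 3.41 and 3.46 in CD109+/+ tumours. The genotypes were well separated at this probe, with a difference of 0.70 ± 0.21 (limma adjusted p = 0.582), but 2 further Cxadr probes gave 0.14 and 0.45. F11r, which encodes JAM-A, read 4.24 and 3.98 in CD109-/- tumours, against 3.65 and 3.94 in CD109+/+ tumours, a difference of 0.31 ± 0.24. Lsr, which encodes angulin-1 and recruits tricellulin, differed by -0.30 ± 0.40, with CD109-/- replicate 2 at 4.41 and the other arrays between 5.15 and 5.42.

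Plaque and polarity genes were evenly divided, with 14 of 28 higher and a median difference of 0.00. Cingulin (Cgn), a plaque protein, differed by -0.21 ± 0.27 (further probe -0.62), the polarity gene Pard3 by 0.10 ± 0.21 with 5 further probes between -0.45 and 0.02, and Crb3, a membrane polarity protein, by -0.10 ± 0.31 (further probe 0.16). Rab3b, a small GTPase of vesicle traffic, read -0.94 and -2.06 in CD109-/- tumours, against 1.07 and -0.47 in CD109+/+ tumours. Its genotypes did not overlap, although each varied by more than 1 on the log2 scale, and the difference was -1.80 ± 0.66 (limma adjusted p = 0.669).

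**Figure D5:**
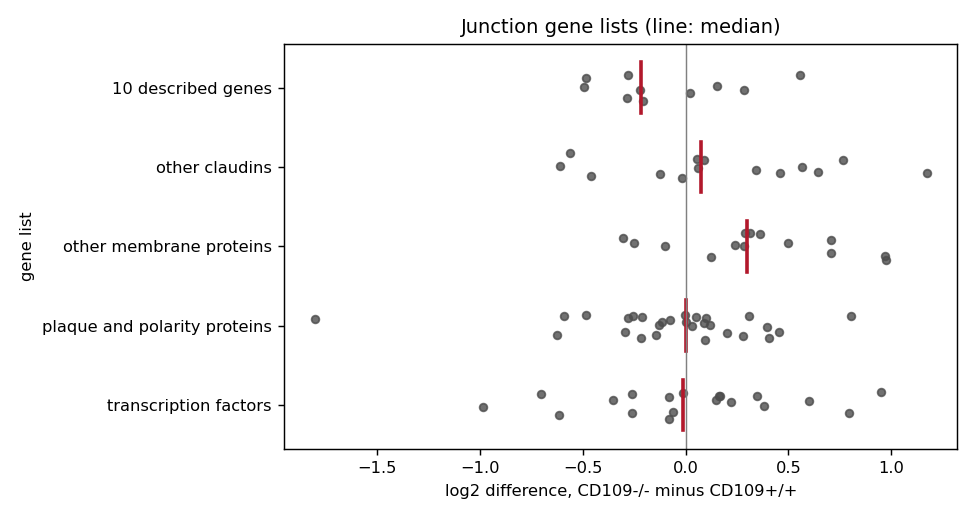
Difference of each tested gene, CD109-/- minus CD109+/+ on the log2 scale, in the 10 described genes, 14 other claudins, 14 other junction membrane proteins, 28 plaque and polarity genes and 19 transcription factors (1 point per gene, vertical jitter for display, red line at the median). Medians are -0.22, 0.08, 0.30, 0.00 and -0.01, and each list spreads to both sides of 0.

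Transcription factors that act on junction genes were read last. Of 21 listed, 19 were tested, 9 higher and 10 lower in CD109-/- tumours, and 0 passed limma's threshold. Zeb2, a repressor that binds CAGGTG, read -0.22 and -0.30 in CD109-/- tumours, against -1.12 and -1.30 in CD109+/+ tumours. The difference was 0.95 ± 0.21 (limma adjusted p = 0.511), and its 3 further probes gave 0.58, 0.29 and -0.21. The related Zeb1 differed by 0.16 ± 0.29, Snai1 by 0.79 ± 0.37 and Snai2 by 0.60 ± 0.36 (limma adjusted p = 0.929, 0.720 and 0.767). These repressors are expressed by fibroblasts and some leukocytes as well, and the fibroblast and leukocyte lists were higher on the same arrays. Whether the tumour cells themselves carried these values was not tested.

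The other 15 factors went both ways, with 5 higher and 10 lower means in CD109-/- tumours, and again none passed the test. Grhl3, a grainyhead factor of epithelial barriers, read -3.97 and -3.69 in CD109-/- tumours, against -2.60 and -3.09 in CD109+/+ tumours, with a difference of -0.99 ± 0.28 (limma adjusted p = 0.568). Its relative Grhl2 differed by -0.26 ± 0.27 (further probe -0.17). Those with higher means, named after their values were seen, were Grhl1 at 0.38 ± 0.33, Ovol2 at 0.35 ± 0.23, Elf3 at 0.22 ± 0.56, Esrp2 at 0.17 ± 0.23 and Foxa1 at 0.15 ± 0.32. Ehf differed by -0.08 ± 0.27, while its 3 further probes gave 0.37, 0.06 and 0.39. Nkx2-1, the lung lineage factor, read 2.45 and 3.16 in CD109-/- tumours, against 3.45 and 3.39 in CD109+/+ tumours, a difference of -0.62 ± 0.31 (limma adjusted p = 0.735, further probe -0.68). Hnf4a, which directs the gastric and hepatic programme, differed by -0.70 ± 0.53 (further probe -1.20), with CD109-/- replicate 2 lowest as in Cldn4.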

How the data were processed

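Total RNA (100 ng) of 4 lung tumour samples was labelled with Cy3 and hybridised to 1-colour arrays, per the labels' protocols, and samples were grouped by the CD109 genotype of the labels. The authors' scanner files, made with Agilent Feature Extraction 12.1.0.3 per the file headers, hold intensity values on a linear scale and other values, the flags for background and outliers. The processed signal was background-subtracted and not scaled between arrays, per the file headers. A second deposited table of the authors holds intensity values equal to that signal times 1.04 and 1.08 for CD109-/- replicates 1 and 2 and times 1.19 and 1.21 for CD109+/+ replicates 1 and 2. How these constants were derived is not stated in the sources used here. Its column medians were 59.5 and 69.2 for CD109-/- and 58.8 and 76.1 for CD109+/+, and it was not centred.

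The processed signal was taken to log2 and set relative to the array's 75th percentile over 59305 spots without controls. Spots with an outlier flag were left out and spots of 1 probe averaged. Probes were named through their accession in RefSeq (GRCm38.p6), and the array files use another build. Tested were probes that stood well above background on both CD109-/- or both CD109+/+ arrays (35769 probes, 16443 genes, the brightest tested probe standing for a gene). The comparison of genotypes used limma 3.58.1 (lmFit, eBayes) under R 4.3.3, without covariates, and adjusted by Benjamini-Hochberg over all probes or all genes at 0.05. The procedure was tested on simulated data. The part of each transcript under a probe was not examined.

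The members and lists were chosen with earlier results of these data known. Named were Cd109, every member probe, genes of the junction and transcription factor lists with the lowest unadjusted p under 0.05, and fixed genes of those and the marker lists, of which 1 is not reported here. Genes added after their values were seen are marked. With 4 arrays, no gene was named for likeness to the members. As alternatives, background was corrected by normexp (offset 50, on median signals), arrays were quantile-normalized, scaled to their medians or centred on epithelial markers (which shifts every difference by the same amount), and the authors' values were used. Other filters on dim probes, a mean-variance trend, a replicate block, a sex covariate, other thresholds, averaging of probes per gene and leaving out single arrays were also tried. All arrays lay on 1 slide.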

Additional observations from a re-analysis of the deposited data

How the results depend on the processing

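Over the 14 member probes and 14 alternatives there were 196 differences, of which 175 kept their sign, 21 reversed and 0 passed limma's threshold. Cldn18, Ocln, Tjp1 and Marveld2 (6 probes) never reversed. All but Marveld2 probe A_55_P2482048 had genotypes that did not overlap, so leaving out an array could not reverse them. Scaling to the median, centring on the epithelial markers and using the authors' values each move every difference by the same small amount. Kept signs under them say little, and neither does the turn of Cldn7 in the authors' values say much. The other filters on dim probes, the mean-variance trend and the replicate block leave each member difference unchanged. Signs kept under these were fixed in advance and say nothing about robustness. Reversals outside the left-out arrays were Cldn2 probe A_51_P437045 at -0.0024 with normexp and Cldn7 at -0.025 with quantile normalization and -0.0014 in the authors' values. With sex as a covariate Cldn1 was 0.18, Cldn3 0.078, Cldn7 -0.26 and Tjp3 -0.40 and -0.33. That fit gives the values obtained without CD109-/- replicate 1, the only male, by construction, so sex and that array cannot be told apart. Ranges over the left-out arrays were -1.17 to 0.18 for Cldn1, -0.46 to 1.03 and -0.34 to 1.46 for Cldn2, -0.65 to 0.078 for Cldn3, -1.47 to 0.91 for Cldn4, -0.26 to 0.30 for Cldn7, and -0.40 to 0.55 and -0.33 to 0.63 for Tjp3. With 1 array left out, the lone array was assumed to vary like the others.

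Over all probes limma called 0, and 0 of 16443 genes. Centring on the epithelial markers gave 75 probes and 5 genes, none a member probe, and leaving out arrays gave 0 to 2 probes. At an unadjusted p under 0.05 there were 2437 probes and 1219 genes. The cause of the calls under that centring was not tested. The members' median difference ranged from -0.26 without CD109-/- replicate 1 to 0.07 without CD109-/- replicate 2, and that of the 56 other junction genes from -0.02 to 0.14. The replicate numbers of the labels are not stated to pair samples. Deviations of same-numbered arrays correlated at r = 0.35 over 35769 probes, and with the replicate block 0 probes and 0 genes were called. The block cannot change a difference in this layout, so the members' median of -0.22 is the same by construction. The number of arrays limits every value.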
